A study of Mus musculus with 60 samples.

Results

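The genes described here encode 10 proteins that hepatocytes secrete into the blood plasma: albumin (Alb), alpha-fetoprotein (Afp), transthyretin (Ttr), the apolipoproteins Apoa1, Apoa2 and Apob, fetuin-A (Ahsg) and the fibrinogen chains Fga, Fgb and Fgg. They were chosen by symbol, as all probe sets of the Affymetrix chips MOE430A and MOE430B whose platform annotation names 1 of these genes, which gives 21 of 45037 probe sets and 10 of 18193 genes. No filter on low values was applied, so all 21 were tested. MSTN-null mice (labelled Mstn-null), which lack the muscle growth inhibitor myostatin, were compared with wild-type mice, both of the C57BL/6J strain, in the entire embryo (13.5 days post coitum, d.p.c.), the hindquarters (17.5 d.p.c.) and the pectoralis muscle (35 days of age, d35). Each sample was RNA pooled from 3 animals, with 5 pools per genotype and time point, and each of the 30 pools was hybridized to both chips. Values are log2 intensities, so a difference of 1 is a 2-fold change, and every difference is MSTN-null minus wild-type. A pool stands for the average of its 3 animals, and the labels give no litter or dissection record. Myostatin's own transcript was not analysed here. At 17.5 d.p.c., MSTN-null pools 5 and 4 had the lowest median correlation with the other arrays on MOE430A (0.9816 and 0.9819, against 0.9881 to 0.9918 in the other 8 pools), and on MOE430B it was wild-type pool 1 (0.9508, against 0.9919 to 0.9938).

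Hepatocytes are the main source of these proteins from fetal life on, and their transcripts are among the most abundant of the liver. Albumin carries fatty acids and hormones, alpha-fetoprotein is the fetal counterpart of albumin and is switched off after birth, transthyretin carries thyroid hormone, the apolipoproteins build lipoprotein particles, fetuin-A binds calcium phosphate, and the 3 fibrinogen chains form the precursor of fibrin clots. Before birth, Afp, Ttr, Apoa1, Apoa2 and Apob are also made by the visceral endoderm of the yolk sac, Apoa1 and Apob by the intestine, and Ttr by the choroid plexus of the brain, while the fetal liver is also the site where red blood cells form. Skeletal muscle is no known major source of any of them, so in these samples their level serves as a measure of liver, or of a tissue that shares its secretory genes, in what was dissected. In bulk RNA, fewer cells of a type and less RNA per cell cannot be told apart.

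The genes lie partly side by side: in the RefSeq annotation of GRCm38.p6, Alb and Afp are neighbours, as are Fgg and Fga, and 1 predicted gene (Gm40075) separates Fga from Fgb. Their promoters were searched for the letters of sites of liver transcription factors. A link between these letters and the levels across pools was not tested. Among the 9 members other than Ttr, whose window was not used here, the letters GTTAAT, a core of the recognition site of the liver transcription factor HNF1, were found on either strand within the 250 bases before the transcription start in 4 genes (Alb, Afp, Fga and Fgb), against 6.43% of 32851 mouse promoters. TTGCNNAA, a loose form of the site of C/EBP factors, was found on either strand in 7 of the 9 genes (9.56% of all promoters) and TGTTTAC, a FOXA core, in 1, Apoa2 (3.17% of all promoters). A match describes these letters only, and the GTTAAT and TTGCNNAA matches of the members overlapped in 0 places. The 160 bases before the start of the 4 genes with the HNF1 core, from RefSeq (GRCm38.p6) and 5′ to 3′ on the strand of the gene, are printed with GTTAAT or its reverse complement in capitals. They come from chr5:90460710-90460869 (+ strand) for Alb, chr5:90490554-90490713 (+ strand) for Afp, chr3:83025993-83026152 (+ strand) for Fga and chr3:83049864-83050023 (- strand) for Fgb.
Alb: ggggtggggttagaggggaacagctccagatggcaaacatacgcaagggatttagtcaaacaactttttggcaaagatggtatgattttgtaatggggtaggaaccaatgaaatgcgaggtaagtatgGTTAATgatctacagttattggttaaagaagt
Afp: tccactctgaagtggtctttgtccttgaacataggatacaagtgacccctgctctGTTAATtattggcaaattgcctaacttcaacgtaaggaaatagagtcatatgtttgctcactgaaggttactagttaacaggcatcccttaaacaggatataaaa
Fga: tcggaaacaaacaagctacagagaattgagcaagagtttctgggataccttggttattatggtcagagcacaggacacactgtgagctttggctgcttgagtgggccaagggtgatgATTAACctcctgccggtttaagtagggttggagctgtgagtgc
Fgb: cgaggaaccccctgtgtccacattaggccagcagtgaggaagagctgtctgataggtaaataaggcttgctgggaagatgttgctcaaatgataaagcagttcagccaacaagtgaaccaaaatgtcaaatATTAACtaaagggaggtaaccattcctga
In 3 of the 4 the core sits close to the start, 32 to 27 bases before it in Alb, 29 to 24 in Fgb and 43 to 38 in Fga, and in Afp it lies 105 to 100 bases before it.

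At 17.5 d.p.c., the level of all 10 genes in the hindquarters was lowest in the same MSTN-null pool, pool 5, by 3.54-fold (Apoa1) to 51.8-fold (Fga) relative to the median of the other 9 pools. Alb and Apoa1 still stood at percentiles 86.2 and 95.3 of intensity on the MOE430A array of that pool. A gene is given by its brightest probe set, the one with the highest mean over the 30 pools. Alb had log2 intensities of 14.09, 13.81, 13.94, 13.56 and 9.79 in MSTN-null pools 1 to 5, against 14.31, 14.19, 14.00, 14.26 and 13.41 in wild-type pools 1 to 5. Pool 5 of the MSTN-null mice was 4.21 below the median of the other 9 pools, an 18.5-fold lower intensity, while MSTN-null pools 1 to 4 lay within the wild-type range. Afp had 13.51, 13.23, 13.38, 12.99 and 8.80 in MSTN-null pools, against 13.88, 13.73, 13.51, 13.70 and 12.30 in wild-type pools. Ttr had 12.67, 12.25, 12.46, 11.78 and 9.36 in MSTN-null pools, against 13.45, 12.97, 12.52, 13.35 and 11.06 in wild-type pools. In both genes the pool numbered 5 was the lowest of its genotype, and the genotypes overlapped.

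The fibrinogen chains and fetuin-A also had MSTN-null pool 5 as the lowest pool, but here MSTN-null pool 4 and not wild-type pool 5 came next. Fga had 11.80, 11.36, 11.74, 10.45 and 6.11 in MSTN-null pools, against 12.76, 12.38, 11.82, 12.27 and 11.10 in wild-type pools. Fgg, the gamma chain, had 11.97, 11.56, 11.89, 10.61 and 6.30 in MSTN-null pools, against 12.80, 12.66, 12.04, 12.54 and 11.46 in wild-type pools. Fgb, the beta chain, had 11.22, 11.00, 11.28, 9.70 and 6.56 in MSTN-null pools, against 12.51, 12.08, 11.44, 12.08 and 10.66 in wild-type pools. In all 3 chains MSTN-null pool 5 stood far below every other pool and pool 4 was the second lowest. Ahsg had 12.20, 11.64, 11.84, 10.56 and 7.23 in MSTN-null pools, against 13.14, 12.64, 12.14, 12.83 and 10.74 in wild-type pools, where MSTN-null pools 1 to 3 lay within the wild-type range and pools 4 and 5 below it. In MSTN-null pool 5, Fga was 5.70 (51.8-fold) and Fgg 5.66 (50.7-fold) below the median of the other 9 pools, which ranks them 2nd and 3rd of all 45037 probe sets by the size of that drop.

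The apolipoproteins were split. Apoa2, of high-density lipoprotein, had 12.95, 12.13, 12.70, 12.08 and 7.92 in MSTN-null pools, against 13.57, 13.27, 12.73, 13.33 and 11.31 in wild-type pools. Apoa1, the main protein of high-density lipoprotein, had 12.83, 12.82, 12.64, 12.04 and 11.01 in MSTN-null pools, against 13.47, 13.56, 12.85, 13.21 and 12.05 in wild-type pools. Apob, the structural protein of low-density lipoprotein and chylomicrons, had 9.24, 9.75, 9.94, 8.89 and 7.54 in MSTN-null pools, against 9.92, 10.62, 9.99, 10.61 and 9.08 in wild-type pools. Apoa2 in MSTN-null pool 5 was 28.1-fold under the median of the other 9 pools, whereas the drop was 3.54-fold for Apoa1 and 5.20-fold for Apob, the smallest of the 10 genes. In the same pool, Fabp2, a fatty acid binding protein of enterocytes, had 10.83, against 11.20 to 12.74 in MSTN-null pools 1 to 4 and 11.54 to 12.71 in wild-type pools.

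**Figure D1:**
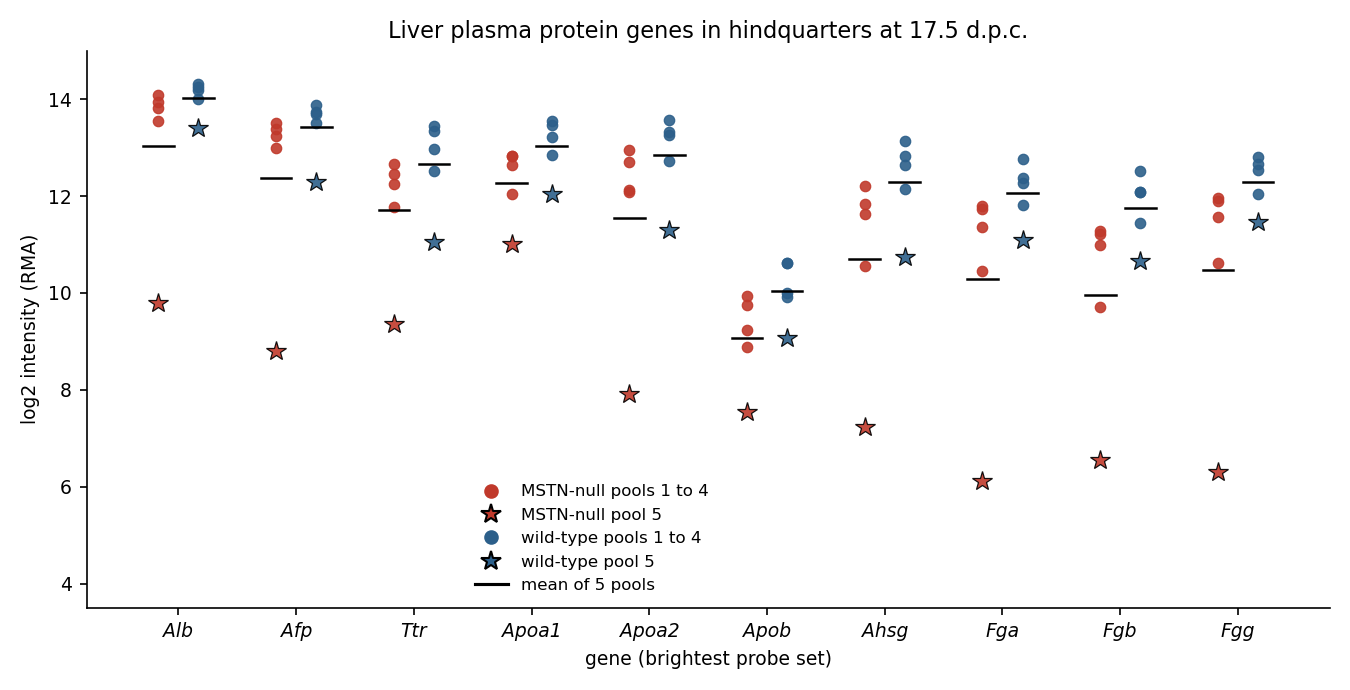
Log2 intensity of each of the 10 genes (brightest probe set) in the 5 MSTN-null pools (red, left of each pair) and 5 wild-type pools (blue, right) of hindquarters at 17.5 d.p.c., with pool 5 of each genotype as a star and the mean of 5 pools as a line. MSTN-null pool 5 is the lowest point of every gene, down to 6.11 for Fga, and wild-type pool 5 is the lowest wild-type point of every gene.

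The other probe sets of the members gave the same picture, apart from 3 that responded little. MSTN-null pool 5 was the lowest of the 10 pools in 19 of 21 probe sets (8% of all probe sets) and over 2 log2 units under the median of the other 9 pools in 15 of 21, from all 10 genes (0.151% of all probe sets, 68 probe sets of 49 named genes). The second chip, a separate hybridization of the same pools, showed it as well: the Ttr probe set 1459737_s_at of MOE430B had 12.75, 12.38, 12.59, 11.68 and 7.74 in MSTN-null pools, against 13.28, 13.03, 12.63, 13.32 and 11.29 in wild-type pools, with pool 5 of the MSTN-null mice again far below the rest. The Afp probe sets 1436880_at and 1436881_x_at and the Apob probe set 1457554_at were at 0.04, -0.26 and -0.32 relative to that median in MSTN-null pool 5, against drops of 3.02 to 4.71 for the other 3 Afp probe sets and 2.38 for Apob 1455593_at. These 3 probe sets thus disagree with the rest of their genes. The 4 Apoa1 probe sets, 3 of which end in _x_at, a suffix for probes that may also match other transcripts, dropped by 1.63 to 2.16.

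Ordered over all 10 pools, the members agreed closely. MSTN-null pool 5 was the lowest pool for 10 of 10 genes, the second lowest was MSTN-null pool 4 for 6 genes and wild-type pool 5 for 4, and the highest was wild-type pool 1 for 8 genes and wild-type pool 2 for 2. The mean level of the 10 genes, relative to the wild-type mean, was -0.20, -0.49, -0.26, -1.18 and -4.38 in MSTN-null pools 1 to 5, against 0.54, 0.36, -0.14, 0.37 and -1.13 in wild-type pools 1 to 5. The range within wild-type pools was therefore wider than the gap between MSTN-null pools 1 to 3 and the wild-type mean. After the genotype means were removed, the correlation with Alb over the 10 pools had a Pearson r of 0.841 (Apob) to 0.993 (Afp) and a Spearman rho of 0.624 (Apob) to 0.988 (Afp). In permutation tests with 100000 resamples, adjusted over the 27 relations computed (9 genes at 3 time points), the p of r was at most 0.0036 at 17.5 d.p.c. and that of rho was at most 0.030 except for Apob (0.080). Without the 2 pools farthest from the Alb median, which were pool 5 of each genotype, r was 0.995 for Afp, 0.926 for Fgg and 0.911 for Fga. It was 0.636 for Ttr, 0.465 for Apoa1 and 0.332 for Apob. The genotype means removed there still included pool 5, so these values cannot show how far a relation rests on those pools.

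**Figure D2:**
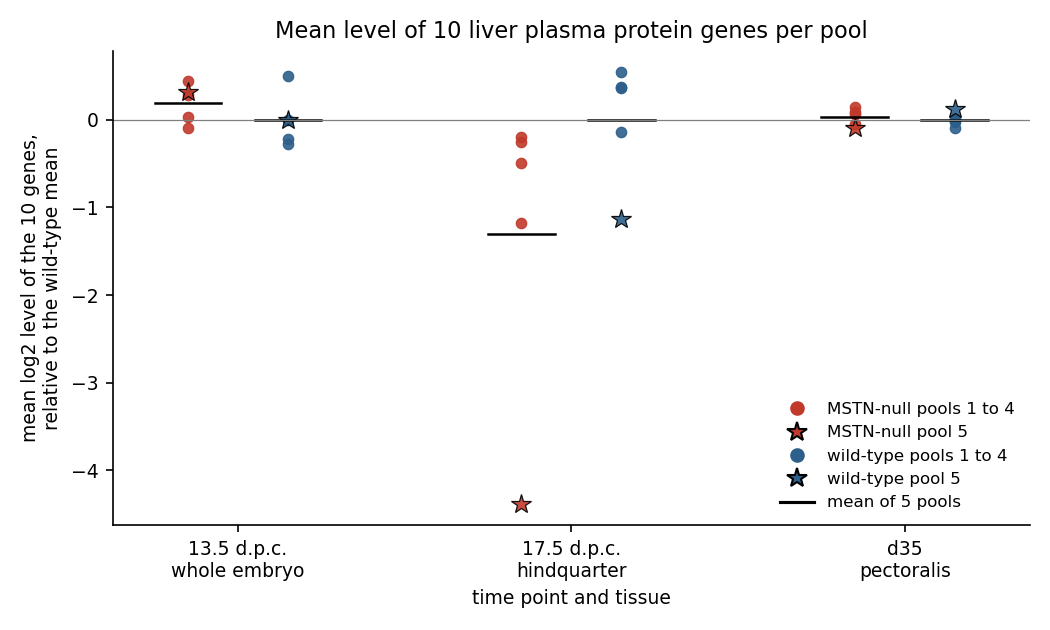
Mean log2 level of the 10 genes per pool, relative to the wild-type mean of the time point, for MSTN-null pools (red, left) and wild-type pools (blue, right) at each time point, with pool 5 as a star and the mean of 5 pools as a line. At 17.5 d.p.c. the pools span from -4.38 to 0.54, while the pools lie between -0.28 and 0.50 at d35 and at 13.5 d.p.c..

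The genotype comparison at 17.5 d.p.c. gave no called member. All 21 probe sets had a difference below 0 (50.5% of all probe sets), with a median of -1.16 over the 10 genes, against -0.00112 over all probe sets. The groups did not separate in any of the 21 (0.535% of all probe sets did), and 0 of 21 passed a Storey q of 0.05 after limma, as did 0% of all probe sets. At an unadjusted limma p under 0.05, 5 of 21 were lower in MSTN-null (1.5% of all probe sets), from Fgb, Apoa1, Apob and Afp. Alb averaged 13.04 ± 1.83 in MSTN-null and 14.03 ± 0.37 in wild-type (SD, n = 5 pools each), a difference of -0.995 with a 95% interval of -2.56 to 0.57. Fgg differed most, by -1.83 (95% interval -3.89 to 0.22), and averaged 10.47 ± 2.39 in MSTN-null and 12.30 ± 0.55 in wild-type. In exact two-sided permutation tests over the 252 splits of the pools, p ranged over the 10 genes from 0.0476 (Fgg) to 0.373 (Afp), where the smallest possible is 0.00794, and the smallest adjusted p over the 30 tests of 3 time points was 0.51.

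The size of that difference was set largely by MSTN-null pool 5. Without it, the differences ran from -0.14 for Afp and -0.18 for Alb to -0.79 for Fgg and -0.96 for Fgb, with a median of -0.52 over the 10 genes, and all 21 probe sets stayed below 0. Alb then differed by -0.18 ± 0.18 (SE), a 1.14-fold lower intensity in MSTN-null, and 2 of 21 probe sets, those of Fgb and Fgg, had an unadjusted limma p under 0.05, against 1.60% of all probe sets. Leaving out pool 5 of both genotypes, which was chosen after the values were seen, gave a median of -0.81, from -0.34 ± 0.12 for Alb to -1.23 ± 0.36 for Fgb (SE). Wild-type pool 5 was the lowest wild-type pool of every gene, so leaving it out raises the wild-type mean and narrows the spread by construction. In that fit 17 of 21 probe sets, which vary together across pools, had an unadjusted limma p under 0.05, against 2.48% of all probe sets. Of the 21, 0 passed a q of 0.05, as did 0 of all probe sets. The fibrinogen chains were lower in MSTN-null also without MSTN-null pool 5, and no fit called this.

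**Figure D3:**
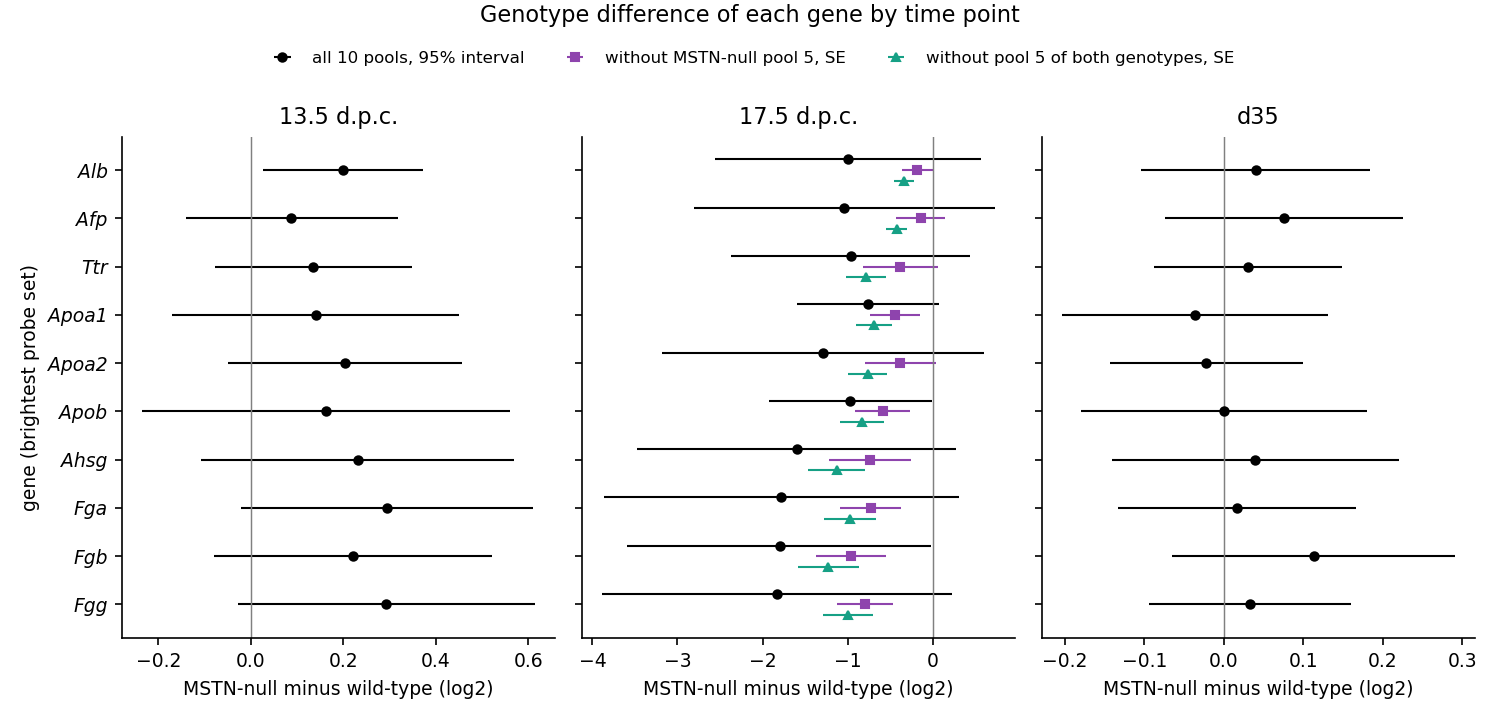
Difference between MSTN-null and wild-type (log2, positive when higher in MSTN-null) of each gene at the 3 time points, with the 95% interval of the limma fit over 10 pools in black. At 17.5 d.p.c. the differences without MSTN-null pool 5 (squares) and without pool 5 of both genotypes (triangles), with SE, lie closer to 0 than the black points, and the horizontal scale differs between the panels.

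At 13.5 d.p.c., in whole embryos, the members tended the other way by small amounts. Of 21 probe sets, 20 had a difference above 0 (49.7% of all probe sets), and the median over the 10 genes was 0.20. No member passed the q threshold (0.54% of all probe sets did), none separated the genotypes (2.4% of all), and 1 of 21, Alb, was higher in MSTN-null at an unadjusted limma p under 0.05 (4.71% of all). Alb had 13.51, 13.05, 13.36, 13.18 and 13.35 in MSTN-null pools 1 to 5, against 12.94, 13.29, 13.13, 12.96 and 13.13 in wild-type pools 1 to 5. The pools of the genotypes interleaved, and the difference was 0.20 (95% interval 0.03 to 0.37, limma q = 0.28, exact permutation p = 0.111). Fga, with the largest difference of 0.29, had 9.80, 9.10, 9.56, 9.31 and 9.74 in MSTN-null pools, against 8.98, 9.68, 9.38, 8.85 and 9.15 in wild-type pools. A sign of RNA quality, the log2 difference between 3′ and 5′ actin probe sets, followed genotype at this age. On MOE430B no MSTN-null pool was under 0.29 and no wild-type pool over 0.234. On MOE430A only MSTN-null pool 2 (0.201) fell below a wild-type pool, pool 4 (0.214). For Gapdh the genotypes overlapped on both chips. The part of RNA quality in these differences was not tested.

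Among the wild-type embryos, pool 2 stood above the other 4 pools in the brightest probe set of each gene, most of all in Apob and Apoa1. Other Afp probe sets disagreed: in 1416645_a_at wild-type pool 2 was the lowest of the 10 pools (12.54). In 1436879_x_at it had 11.77, against 11.79 in wild-type pool 4. Apob had 9.28, 8.93, 9.01, 8.67 and 9.05 in MSTN-null pools 1 to 5, against 8.42, 9.69, 8.69, 8.43 and 8.89 in wild-type pools 1 to 5. Apoa1 had 11.37, 10.68, 11.14, 10.83 and 11.15 in MSTN-null pools, against 10.64, 11.47, 10.77, 10.68 and 10.89 in wild-type pools. Wild-type pool 2 was the highest of the 10 pools for 6 genes and MSTN-null pool 1 for the other 4, while wild-type pools 4 and 1 were the lowest for 6 and 4 genes. In wild-type pool 2, 2 of the 5 listed markers of yolk sac and other endocytic epithelium were also highest: Cubn, the receptor cubilin, had 8.54, against 6.30 to 6.45 in the 5 MSTN-null pools and 6.28 to 6.44 in the other 4 wild-type pools, and its partner Amn had 6.95, against 6.29 to 6.54 in MSTN-null pools and 6.37 to 6.43 in the other wild-type pools. The other 3 markers, Lrp2, Dab2 and Sox17, lay within or below the range of the other pools there, and the mean of the 5 markers was 0.43 above the wild-type mean in that pool and -0.17 to -0.06 in the other 9 pools. The part of yolk sac in the result was not tested. Without wild-type pool 2 the differences of the 10 genes were 0.20 (Afp) to 0.42 (Fgg). This pool was singled out after the values were seen, and leaving out the highest wild-type pool lowers the wild-type mean by construction. In that fit 13 of 21 probe sets, which vary together across pools, were higher in MSTN-null at an unadjusted limma p under 0.05 (5.66% of all probe sets). The lowest q of the 10 genes was 0.0829 (Apoa2), and no member was called.

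**Figure D4:**
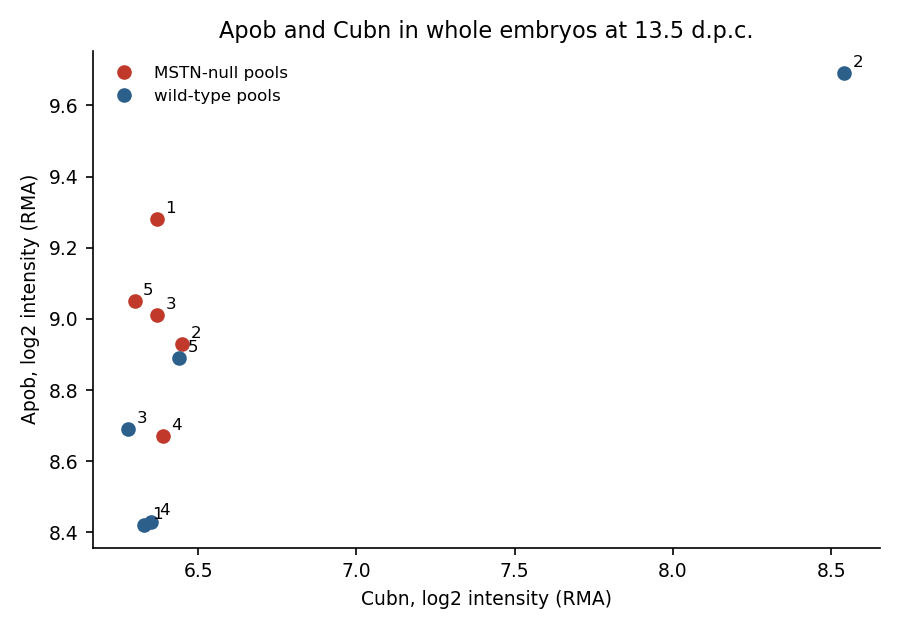
Log2 intensity of Apob against Cubn in the 10 whole-embryo pools at 13.5 d.p.c., MSTN-null in red and wild-type in blue, numbered by pool. Wild-type pool 2 lies apart in both genes, at 8.54 for Cubn and 9.69 for Apob.

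The members also varied together across the embryo pools, over a much smaller span than in hindquarters. With genotype means removed, r with Alb at 13.5 d.p.c. was 0.775 (Apob) to 0.971 (Ahsg) and rho 0.770 (Apob) to 0.964 (Apoa1 and Fgg), each with an adjusted permutation p of at most 0.020 over 27 relations (n = 10 pools). Without the 2 pools farthest from the Alb median, MSTN-null pool 2 and wild-type pool 1, r was between 0.829 (Afp) and 0.949 (Ahsg). The genotype means removed there were still those of all 10 pools.

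In pectoralis muscle at d35, no member was called different between the genotypes. Alb had 6.78, 6.67, 6.50, 6.49 and 6.53 in MSTN-null pools 1 to 5, against 6.58, 6.52, 6.41, 6.65 and 6.61 in wild-type pools 1 to 5, and the difference of 0.04 had a 95% interval of -0.10 to 0.18. Fgb, with the largest difference of 0.11 (95% interval -0.07 to 0.29), had 5.01, 5.22, 5.05, 4.92 and 4.89 in MSTN-null pools, against 4.82, 4.70, 4.91, 4.97 and 5.13 in wild-type pools. In both genes the pools of the genotypes overlapped. Over the 21 probe sets, 13 differences were above 0 (56% of all probe sets), 0 passed the q threshold (4.58% of all), 0 had an unadjusted limma p under 0.05 (17.9% of all) and 0 separated the genotypes (5.25% of all). Within its chip, Alb ranked at the 38.8th to 47.0th percentile of intensity at d35 and Fga at the 5.07th to 7.91st, whereas at 17.5 d.p.c. the median rank of the pools was 99.9 for Alb and 97.4 for Fga, and MSTN-null pool 5 was at 86.2 and 15.5. Probe sets differ in affinity, so such a rank places a signal on its array and is no level of the transcript. The correlation with Alb was lower for most genes at d35: r was -0.098 for Ttr and 0.149 for Apoa1 and reached 0.840 for Apoa2 (adjusted permutation p = 0.0025, n = 10 pools) and 0.783 for Fgg (adjusted permutation p = 0.0084). The r of Fgg was 0.424 without the 2 pools farthest from the Alb median, with the genotype means of all 10 pools still removed.

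Whether the genotype difference itself changed with time was tested as an interaction in 1 limma fit of the 30 pools. Between 17.5 and 13.5 d.p.c. the difference of Fgg changed by -2.13 ± 0.84 (SE) and that of Alb by -1.19 ± 0.63, with 10 of 21 probe sets at an unadjusted p under 0.05 (6.26% of all probe sets) but a lowest q of 0.562 and 0 of 21 called, as were 0% of all probe sets. Between 17.5 d.p.c. and d35 the difference of Fgb changed by -1.92 ± 0.73, 8 of 21 had an unadjusted p under 0.05 (11.8% of all) and 0 of 21 were called (0.715% of all; lowest q 0.196). This last result depended on the model. With replicate numbers fitted as blocks, limma called Ttr 1451580_a_at (q = 0.0422) and Apoa1 1455201_x_at (q = 0.0403), no other member probe set, and 1.25% of all probe sets. The numbers were not taken as pairs: same-numbered pools correlated by -0.20 to 0.485 at 17.5 d.p.c. and by -0.17 to 0.14 at d35. Between 13.5 d.p.c. and d35, 0 of 21 were called (1.17% of all; lowest q 0.501). Each probe set had 1 variance over all 30 pools in this fit, which includes the wide spread at 17.5 d.p.c. For Alb the SE of this last contrast was 0.631, against 0.0813 at 13.5 d.p.c. and 0.0667 at d35 in the separate fits. The fit could therefore hardly detect a change of the members between 13.5 d.p.c. and d35.

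Other genes of the liver followed the members at 17.5 d.p.c., by how much depending on the list. Of 28 further secreted liver proteins measured, 28 had a difference below 0, with a median of -0.82 (-0.43 without MSTN-null pool 5), and 0 were called. The largest differences among them were those of Kng1 (kininogen), -1.54 ± 0.76, Itih3, -1.43 ± 0.76, Ambp, -1.29 ± 0.85, and Plg (plasminogen), -1.29 ± 0.69 (SE). Of 16 metabolic enzymes of the liver, 13 were below 0 (median -0.30), among them Fbp1 of gluconeogenesis (-1.27 ± 0.44) and Arg1 and Cps1 of the urea cycle (-1.04 ± 0.45 and -0.96 ± 0.38), and of 14 liver transcription factors 14 were below 0 (median -0.21), with Hnf4a at -0.40 ± 0.16. Over all probe sets the median was -0.00112, and 0 genes of any list were called at 17.5 d.p.c. Listed genes of red blood cell formation moved with the members: their mean level was -1.46 in MSTN-null pool 5 and -0.62 to 0.08 in MSTN-null pools 1 to 4, against -0.96 to 0.66 in wild-type pools, and 10 of 12 were lowest in MSTN-null pool 5. Hemgn, an erythroid nuclear protein, had 10.36, 9.37, 10.42, 9.70 and 6.00 in MSTN-null pools, against 11.13, 10.33, 10.40, 10.39 and 8.64 in wild-type pools.

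Lists of other organs, and that of macrophages with the Kupffer cells of the liver, were shifted by at most 0.47 in MSTN-null pool 5. The liver enzymes were at -1.02 there (-0.54 to -0.20 in MSTN-null pools 1 to 4, -0.48 to 0.34 in wild-type pools). The liver transcription factors were at -0.31 (-0.29 to -0.11 and -0.28 to 0.24), barely below the other pools. Of these lists, 7 of 16 enzymes and 4 of 14 transcription factors were lowest in MSTN-null pool 5. In that pool the mean level was -0.47 for 9 intestinal genes (-0.43 to 0.26 in MSTN-null pools 1 to 4, -0.33 to 0.34 in wild-type pools), -0.34 for 9 kidney genes (-0.23 to 0.12 and -0.16 to 0.17), -0.10 for 6 genes of the exocrine pancreas (-0.32 to 0.05 and -0.30 to 0.67), -0.14 for 7 of the choroid plexus (-0.11 to 0.10 and -0.10 to 0.11), -0.33 for 5 yolk sac markers (-0.61 to 0.24 and -0.16 to 0.27) and -0.18 for 8 of Kupffer cells and macrophages (-0.17 to -0.01 and -0.21 to 0.13). The 13 skeletal muscle genes were at 0.19 in MSTN-null pool 5 (-0.05 to 0.33 in MSTN-null pools 1 to 4, -0.23 to 0.28 in wild-type pools), and 12 of the 13 differed above 0 between genotypes, with a median of 0.10. Fast myosin light chain Mylpf averaged 13.73 ± 0.08 in MSTN-null and 13.55 ± 0.21 in wild-type (SD, n = 5 pools each). The drop of the plasma protein genes in this pool, with a mean of -4.38, was thus accompanied by lower liver and erythroid lists. The intestine, kidney and choroid plexus lists were also lowest in this pool, by less than the liver enzyme and erythroid lists. The intestine and kidney shifts exceeded that of the liver transcription factors, and the muscle list lay within its range in the other pools. The part of dissection in the result was not tested. As a sign of RNA quality, the log2 difference between 3′ and 5′ actin probe sets was 0.24 on MOE430A and 0.429 on MOE430B in MSTN-null pool 5, the lowest of the 10 pools on either chip, and highest in wild-type pool 5 (0.538 and 0.734). For Gapdh, MSTN-null pool 5 was at 0.0069 on MOE430A, where only wild-type pool 5 was higher (0.0283). On MOE430B it was the lowest of the 10 pools, at -0.0795. The part of RNA quality was not tested.

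**Figure D5:**
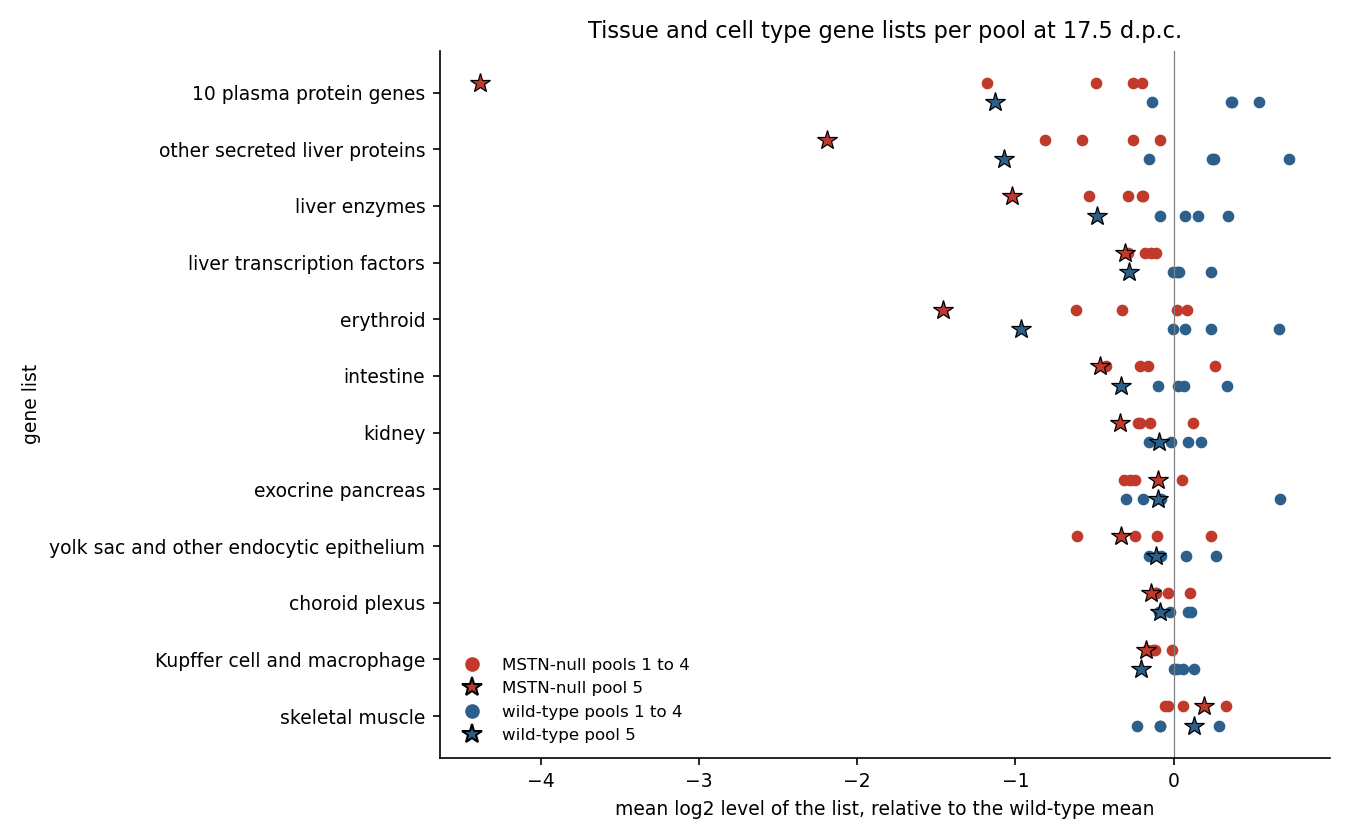
Mean log2 level of the 10 plasma protein genes and of each gene list per pool at 17.5 d.p.c., relative to the wild-type mean, with MSTN-null pools in red (upper of each pair) and wild-type pools in blue, and pool 5 as a star. MSTN-null pool 5 is at -4.38 for the plasma protein genes, -2.19 for other secreted liver proteins and -1.46 for erythroid genes, against 0.19 for skeletal muscle genes.

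The lists of liver genes were nearer to 0 at the other ages. At 13.5 d.p.c., 26 of the 28 further secreted liver proteins were above 0 (median 0.12) and 0 listed genes were called. This was not particular to liver lists. Above 0 were also 10 of 13 skeletal muscle genes (median 0.13), 11 of 12 erythroid, 6 of 6 exocrine pancreas and 7 of 8 macrophage genes. The same held for 7 of 9 intestinal and 7 of 9 kidney genes, but for only 3 of 7 choroid plexus genes and 2 of 5 yolk sac markers. At d35, 5 of these 28 genes were called by limma with Storey q, where 4.58% of all probe sets were: in MSTN-null muscle Hp (haptoglobin) fell by 0.90 ± 0.17, Apoc1 by 0.83 ± 0.17, Rbp4, the retinol carrier that adipocytes also make, by 0.74 ± 0.13 and Vtn (vitronectin) by 0.28 ± 0.07, and Serpinc1 (antithrombin) rose by 0.28 ± 0.06 (SE; q = 0.00929, 0.0122, 0.00526, 0.0369 and 0.0181), while the differences of the 10 plasma protein genes ran from -0.04 to 0.11. One liver transcription factor, Cebpb, was called lower by 0.34 ± 0.06 (q = 0.00732), and 2 muscle genes, Myh8 and Actc1, were called higher. Markers of macrophages, which also express Apoc1, had a median difference of -0.31 at d35, with 0 of 8 called. Their mean level was -0.43 to -0.09 in MSTN-null pools, against 0.51 in wild-type pool 2 and -0.26 to 0.03 in the other wild-type pools. At d35 wild-type pool 2 also had the lowest median correlation with the other arrays (0.9859 on MOE430A, 0.9895 on MOE430B). Its 3′ to 5′ actin difference was the highest (0.579 and 0.584). The part of macrophages and of this pool in these calls was not tested.

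The genes whose pool pattern at 17.5 d.p.c. was most like the mean of the 10 members were named by their correlation with it. Over all 10 pools, where they were all secreted proteins, Pearson r with that mean was 0.991 for Serpina1b and Ambp, 0.989 for Kng1, 0.987 for Apoh, 0.979 for Plg and Serpina1c, 0.975 for Itih3, 0.973 for Serpinc1, 0.972 for Vtn and 0.969 for Igfbp1. Over the 9 pools without MSTN-null pool 5 the closest were Apof (0.989), Arg1 (0.987), Itih3, Gpam, Apoh and Itih4 (0.976 each), Apcs (0.975), Selenbp1 and Cldn1 (0.974 each) and Hp (0.973), of which Itih3 and Apoh were in both sets and Arg1, Gpam, Selenbp1 and Cldn1 encode proteins that stay in the cell or its membrane. These values describe 10 or 9 pools of 1 experiment, which share their arrays, and genes were ranked by them.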

How the data were processed

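Per the labels, the authors normalized the arrays by RMA (R/affy, versions not given), which left log2 intensities between 2.78 and 15.3 in the deposited files. The genotypes were compared at each age. Control probe sets (64 on each chip) were dropped, and for the 100 probe sets that the chips share, MOE430A was used. Genes were named from the platform annotation. MSTN-null was compared with wild-type by limma 3.58.1 (lmFit, eBayes; R 4.3.3) over all 45037 probe sets, with a Storey q under 0.05 as the threshold of a call. Interactions came from a limma fit of 30 pools. Exact permutation tests (5 against 5 pools), correlations, promoter matches and figures used Python 3.11.15 with numpy 2.4.6, scipy 1.17.1, pandas 2.3.3 and matplotlib 3.10.9. The pipeline was tested on simulated data.

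The text covers every member probe set, up to 4 genes per list and time point (those called, otherwise those with the largest difference) and the 10 genes most like the members. The members and the 11 lists (127 of 141 genes measured) were chosen with earlier results of these data known. Arrays carry no counts, so 5 pools per group limit the precision. The labels call the pools biological replicates of 3 animals each. No pair of arrays was identical (0 pairs). Alternatives covered the adjustment, the chips fitted separately, a filter on dim probe sets, quantile normalization, array weights, variance moderation, a single fit, replicate numbers as blocks, the mean of a gene's probe sets and each pool left out.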

Additional observations from a re-analysis of the deposited data

Results flagged for a closer look

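Of 126 groups of 5 pools (21 probe sets, 3 time points, 2 genotypes), 17 held a pool whose gap to the nearest other pool exceeded 0.71 of the range of the group, and chance flags about 1 in 20 groups. MSTN-null pool 5 at 17.5 d.p.c. was the low value in 11 of them: Alb (9.79), Afp (9.75, 8.80 and 9.30 in 3 probe sets), Ttr (9.36, 8.32, 6.83 and 7.74 in 4 probe sets), Apoa2 (7.92), Fga (6.11) and Fgg (6.30). Wild-type pool 5 at 17.5 d.p.c. was low in 2 Afp probe sets (12.68 and 12.30). Wild-type pool 2 at 13.5 d.p.c. was high in 2 Apoa1 probe sets (12.04 and 11.70) and in Apoa2 (12.41), and MSTN-null pool 5 at d35 was low in the Afp probe set 1436880_at (5.08). In 1 Afp probe set, 1416645_a_at, every MSTN-null pool was above the wild-type mean at 13.5 d.p.c. (mean 0.10) and every one was below it at d35, by 0.02 to 0.07. Its interaction between these ages had a limma q of 0.783. The SE of that test, 0.475, includes the spread at 17.5 d.p.c., against 0.0485 and 0.0517 at each age alone, so it could hardly detect such a change. At d35 this probe set was at the bottom of the array (means of 3.32 in MSTN-null and 3.36 in wild-type), and the brightest Afp probe set was higher in MSTN-null by 0.09 at 13.5 d.p.c. and by 0.08 at d35, neither of them called.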

How the results depend on the processing

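With 5 pools per genotype and an SD of 1.83 for Alb in MSTN-null at 17.5 d.p.c. (0.37 in wild-type), the 95% interval of its difference spanned -2.56 to 0.57. Under every alternative run, 0 member probe sets were called within a time point. Values for single genes, by brightest probe set or gene mean, were kept for part of the alternatives. Their lowest q was 0.0829 at 13.5 d.p.c., 0.307 at 17.5 d.p.c. and 0.172 at d35. Of them, 0 of 160 changed sign at 17.5 d.p.c. and 0 of 150 at 13.5 d.p.c. Same-numbered pools correlated by -0.20 to 0.485 at 17.5 d.p.c., -0.10 to 0.08 at 13.5 d.p.c. and -0.17 to 0.14 at d35, so the numbers were not taken as pairs, although 3 of the 5 MSTN-null pools at 17.5 d.p.c. correlated best with their own number (0 of 5 at each other age). With the replicate block, 2 member probe sets, Ttr 1451580_a_at (q = 0.0422) and Apoa1 1455201_x_at (q = 0.0403), were called by limma between 17.5 d.p.c. and d35 (1.25% of all probe sets in that fit), against 0 without it (0.715%), and it changed no other call. At d35, where all differences were small, 20 of 150 values changed sign. Leaving out 1 pool gave ranges of -0.00711 to 0.0655 for Alb, -0.00588 to 0.0522 for Ttr, -0.0889 to 0.0178 for Apoa1, -0.0461 to 0.0433 for Apob, -0.00396 to 0.105 for Ahsg, -0.0194 to 0.0763 for Fga and -0.0099 to 0.0511 for Fgg. Over the mean of all probe sets of a gene, the difference was -0.0178 for Afp, 0.0544 for Apoa1 and -0.0244 for Apob, and Apob was at -0.0116 after further quantile normalization and at -0.00576 with array weights. The cause was not tested.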
